A study of Mus musculus with 3 samples.

Results

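The RMER, ERVB, MYSERV, MurERV4, MERVK26, MLTR and BGLII names are a set of rodent repeats, selected by the start of the repeat name and by no measured value. They are endogenous retroviral repeats, except that the class of RMER1 and RMER30 is uncertain. The rule found 112 of the 18484 listed names, of which 20 denote internal (coding) sequence and 92 were counted as long terminal repeats (LTRs). RMER supplied 58 names, ERVB 21, MLTR 20, BGLII 7, MYSERV 3, MurERV4 2 and MERVK 1. The study sequenced RNA that came down with an antibody (RIP-seq) from hippocampus of 9-month-old mice, all on a C57BL/6 background. PS19 mice, which carry a mutant human tau transgene under the mouse prion promoter, gave 1 library with an antibody to ZBP1 and 1 with an antibody to Z-form nucleic acid (ZNA). Wild-type (WT) mice gave 1 library with the ZNA antibody. Each group is thus a single library, the labels do not say how many mice it holds, and no value has a replicate error.

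An intact endogenous retrovirus has a coding interior, with gag, pro, pol and sometimes env genes, between an LTR at either end. The LTRs carry the promoter and the polyadenylation signal, and recombination between them deletes the interior and leaves a solitary LTR, so that a genome holds many more LTR copies than interiors. Copies in opposite orientation can pair into double-stranded RNA, a form from which left-handed Z-RNA can arise, and ZBP1 senses Z-RNA through its Zα domains. BGLII, ERVB, MYSERV and MERVK26 belong to the betaretrovirus-like class II (ERVK) elements, to which RMER13, RMER17 and RMER19 also belong. RMER15 is of the class III (ERVL) kind. The RMER1 and RMER30 names were counted with the LTR names, although their place in the LTR class is uncertain. A name sums all copies in the genome, so no position, strand or single copy can be given. The tables list repeats and no genes, so the tissue label could not be set against marker genes.

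The libraries held 1425383 (PS19 ZBP1), 2918985 (PS19 ZNA) and 3234786 (WT ZNA) reads on repeat names. Of these, 74474, 308613 and 145372 lay outside the names LSU-rRNA_Hsa and SSU-rRNA_Hsa, or 5.22%, 10.6% and 4.49%. Because rRNA sets the library total, levels are given both as counts per 1000000 reads (CPM) of that total and as CPM of the reads outside rRNA. All intervals are 95% intervals and cover counting error only. Those of shares and ratios are exact (Clopper-Pearson), and those of internal against LTR differences come from the exact conditional odds ratio. The interval of members minus other names is a normal one from its standard error. Reads without molecular identifiers are not independent molecules, so the intervals may be too narrow even for counting error. A count of 0 allows up to 3 reads, or 40.3, 9.72 and 20.6 CPM of the reads outside rRNA in the 3 libraries.

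The 112 names took a similar part of the reads outside rRNA in every library. Member reads numbered 5711 for PS19 ZBP1, 22709 for PS19 ZNA and 9750 for WT ZNA. Per library total these are 0.401% (0.390 to 0.411%), 0.778% (0.768 to 0.788%) and 0.301% (0.295 to 0.307%). Per reads outside rRNA they are 7.67% (7.48 to 7.86%), 7.36% (7.27 to 7.45%) and 6.71% (6.58 to 6.84%). The PS19 ZNA library was thus the highest per library total, and the PS19 ZBP1 library per reads outside rRNA. Ranks over the 112 names gave Spearman's rho of 0.976 between the ZNA libraries, 0.961 between the PS19 libraries and 0.954 between PS19 ZBP1 and WT ZNA. These are correlations across names, which are not independent replicates.

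Reads were unevenly spread over the set. The 10 most-read names held 41.8% of all member reads and the 50 most-read names 90.4%. RMER1B was the most-read name, with 508 reads in PS19 ZBP1, 1453 in PS19 ZNA and 656 in WT ZNA. RMER19B followed with 350, 1399 and 605 reads, then RMER1A with 418, 1177 and 570. RMER15 and RMER6A were the other two of the 5 most-read names. The LTR names of RMER took 76.2%, 71.6% and 73.5% of the member reads of PS19 ZBP1, of PS19 ZNA and of WT ZNA. The 20 MLTR names took 11.9%, 10.5% and 10.2%.

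**Figure D1:**
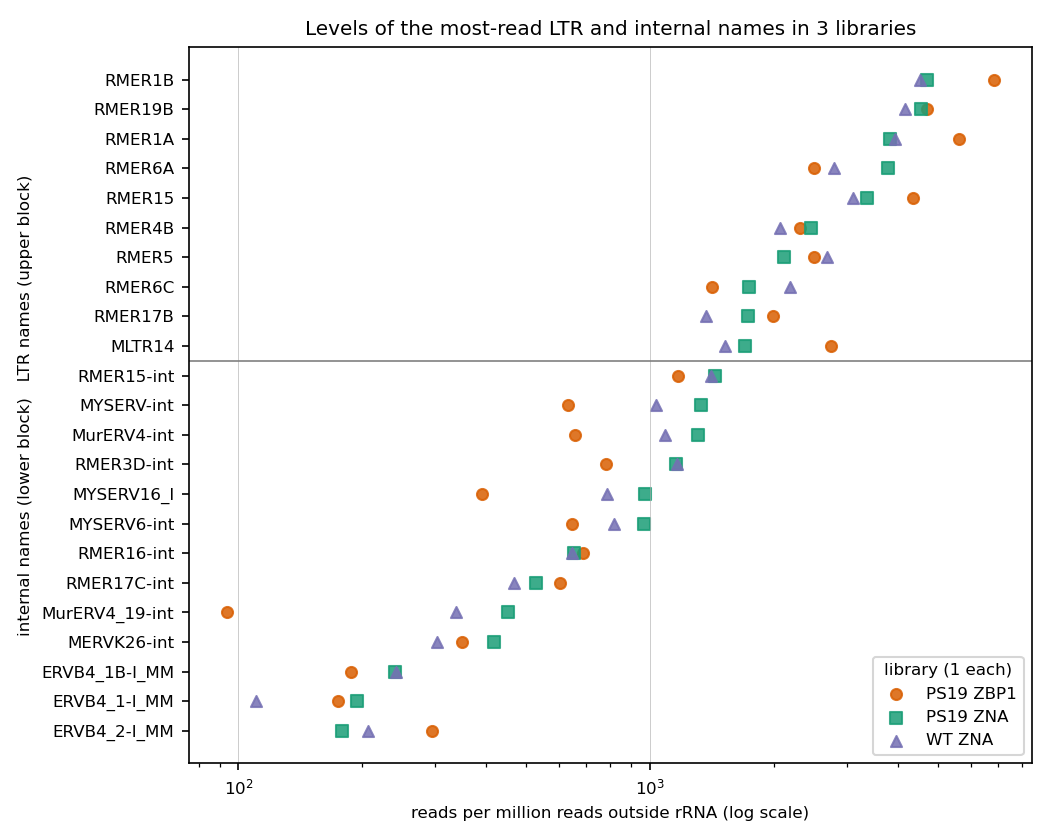
CPM of the reads outside rRNA (x axis, log scale) in each of the 3 libraries (symbols) for the 10 most-read LTR names (upper block) and the 13 internal names that average 10 CPM or more (lower block). PS19 ZBP1 lies right of both ZNA libraries for RMER1A, RMER1B, RMER15 and MLTR14, and left of both for the MYSERV and MurERV4 names.

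Of the 112 names, 99 had reads in all 3 libraries, 8 in some of them and 5 in none. The 5 without a read were RMER3D1, RMER3D2, RMER3D3, RMER3D4 and ERVB4_1-LTR_MM. The 4 RMER3D LTR names stand beside an internal name that was well covered: RMER3D-int had 58 reads in PS19 ZBP1, 356 in PS19 ZNA and 169 in WT ZNA. How reads that map to several copies were assigned is not given in the sources used here, and its part in these zeros was not tested. Among the 8 names read in some libraries, the counts ran from 0 to 15. Of these, ERVB4_2-LTR_MM had 0 reads in PS19 ZBP1, 15 in PS19 ZNA and 5 in WT ZNA, and RMER16B3 had 0, 0 and 5.

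The first comparison set the PS19 against the WT ZNA library, the pull-down for which both genotypes were sequenced. Per library total the members were higher in PS19 as a whole, and per reads outside rRNA the difference was small. Pooled member reads were 2.58-fold higher in PS19 per library total (2.52 to 2.64) and 1.10-fold higher per reads outside rRNA (1.07 to 1.12). Of the 112 names, 96 had a mean of at least 1 CPM and at least 20 reads over the 2 libraries and were compared. Per library total, 75 of the 96 lay past the 2-fold limit on the higher side (on CPM plus a pseudocount of 1) and 0 on the lower side. The shares over all 713 names compared were 74.3% and 0.421%, so the members' share, 78.1%, was near the background. Their median log2 ratio was 1.35, against 1.24 over all names. No p-value is given, since 1 library per group leaves no spread to test against. No library of input RNA or of a control antibody is among the samples. In either comparison, RNA level, efficiency of the pull-down and unspecific carry-over thus cannot be told apart. In bulk tissue, the number of cells of a type and the RNA per cell cannot be told apart either.

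Per reads outside rRNA, 6 of the 96 members were past 2-fold on the higher side and 0 on the lower side, beside 3.52% and 2.39% of the 711 names compared on that scale. The median log2 ratio of the members was 0.16, against 0.07 over all names. The 6 names past the limit, chosen for their values, all had few reads. MLTR31C_MM had 45 reads in PS19 and 6 in WT, a 3.53-fold higher value (1.503 to 10.1). ERVB7_1-LTR_MM had 45 and 7 reads (3.03-fold, 1.36 to 7.96), and ERVB7_2-LTR_MM had 27 and 4 (3.18-fold, 1.11 to 12.5). BGLII_Mus had 61 and 12 reads (2.39-fold, 1.28 to 4.89). BGLII_C had 32 and 2 reads (7.54-fold, 1.92 to 64.9), and ERVB2_1-I_MM had 24 and 1 reads (11.3-fold, 1.84 to 465). All 6 met the limit on summed reads by their PS19 reads alone, and none met it by its WT reads. The PS19 library had more reads outside rRNA, so this limit admits sparse names high in PS19 more readily than sparse names high in WT. The intervals take no account of this selection, so those that exclude 1 are no evidence of a difference for these names.

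**Figure D2:**
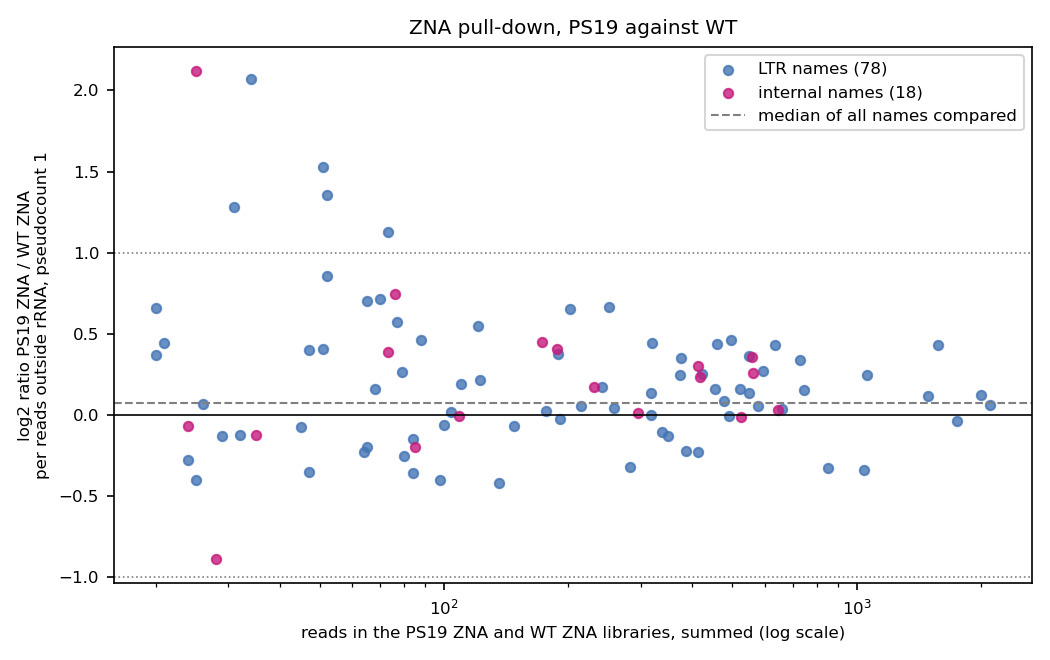
Log2 ratio of PS19 ZNA to WT ZNA per reads outside rRNA (y axis, pseudocount 1) against the summed reads of both libraries (x axis, log scale) for the 96 members compared. Points are repeat names, 78 LTR and 18 internal, and the dashed line is the median of all names compared, 0.07. The 6 names above 1 lie at the left, where reads are few.

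The families differed modestly in this comparison. RMER and MLTR names were pooled by prefix and number and the others by prefix, internal and LTR names together. Of these 30 families, 10 had a ratio with an interval above 1 per reads outside rRNA. An interval below 1 was found for 1, and 19 had an interval that includes 1. No such count was made over other names, and the whole set had a ratio of 1.10, so the counts have no background beside them. ERVB LTR names were 1.73-fold higher in PS19 (1.35 to 2.25), on 294 reads in PS19 and 80 in WT. ERVB internal names, by contrast, had a ratio of 1.15 (0.918 to 1.44), on 273 and 112 reads. The internal share of ERVB reads was 48.1% in PS19 (44.0 to 52.3%) and 58.3% in WT (51.02 to 65.4%). These shares do not set interiors against their own LTRs, since the ERVB7 LTR names have no interior in the set. ERVB7_1-LTR_MM and ERVB7_2-LTR_MM, past 2-fold above, are among those names. BGLII was 1.34-fold higher (1.14 to 1.57), RMER10 1.36-fold (1.17 to 1.57) and MYSERV 1.24-fold (1.10 to 1.40). The BGLII pool includes BGLII_C and BGLII_Mus, which are past 2-fold above, and its ratio without them was not computed. RMER5 was the family with an interval below 1: it had 652 reads in PS19 and 390 in WT, a ratio of 0.787 (0.694 to 0.895).

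Where the 2 ZNA libraries averaged 10 CPM or more, the 5 highest ratios per library total, ranked on the log2(CPM + 1) scale, were those of BGLII_Mus, ERVB4_1-I_MM, RMER20C_Mm, BGLII_B and ERVB4_1B-LTR_MM. RMER20C_Mm, the best covered of them, had 52 reads in PS19 ZBP1, 194 in PS19 ZNA and 57 in WT ZNA. Its PS19 to WT ratio in the ZNA pull-down was 3.77 per library total (2.79 to 5.16) and 1.60 per reads outside rRNA (1.19 to 2.19). BGLII_B had ratios of 3.76 and 1.60 (1.14 to 2.27), and ERVB4_1-I_MM of 4.16 and 1.77 (1.004 to 3.29). The 5 lowest on that scale were RMER17D, MLTR31FA_MM, RMER21B, RMER17D2 and RMER5. They were still 1.74-fold to 1.87-fold higher in PS19 per library total, and their ratios per reads outside rRNA ran from 0.738 to 0.794, with an interval below 1 for RMER5 alone among the 5. Both lists were chosen by their ratios, and the intervals take no account of this. For the 5 highest names, intervals that exclude 1 are thus no evidence of a difference. Among these, BGLII_Mus, ERVB4_1-I_MM and ERVB4_1B-LTR_MM had less than 10 CPM in WT and met the 10 CPM limit through PS19 alone.

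RMER6 shows how names of 1 family diverged. RMER6A had 1166 reads in PS19 and 407 in WT, a ratio of 1.35 per reads outside rRNA (1.204 to 1.51). RMER6C had 535 and 317 reads, a ratio of 0.795 (0.691 to 0.916). The pooled LTR names of RMER6 had a ratio of 1.06 (0.983 to 1.15), so the higher and the lower name offset each other. Reads shared between close relatives could have been counted under either name.

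Names that end in _MM, _Mm, _Mus or _Mur, endings that refer to the mouse or to murine rodents, were also set apart from the other LTR names. The 29 such LTR names were 1.32-fold higher in PS19 than in WT per reads outside rRNA (1.19 to 1.47), on 1377 and 491 reads. The 63 LTR names without such an ending were 1.08-fold higher (1.05 to 1.10). This split was chosen after the counts had been seen. In the ZBP1 against ZNA comparison of PS19, the same lists had ratios of 0.867 (0.761 to 0.985) and 1.12 (1.08 to 1.16).

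Within PS19, the pull-down with the ZBP1 antibody was next compared with that for ZNA. Here LTR and internal names separated. Pooled LTR names had 5193 reads with ZBP1 and 19528 with ZNA, a ratio of 1.10 per reads outside rRNA (1.07 to 1.14). In CPM of the reads outside rRNA these are 69729 and 63277. Without the RMER1 and RMER30 names, whose place in the LTR class is uncertain, they were 55039 and 53335. RMER1 alone stood at 14582 and 9808, so much of the LTR excess lay in that family. Pooled internal names had 518 and 3181 reads, a 1.48-fold lower value in ZBP1 (1.35 to 1.63). Per library total both were lower in ZBP1, LTR names 1.84-fold (1.78 to 1.89) and internal names 2.999-fold (2.73 to 3.30).

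Of the 112 names, 89 were compared. Per library total 49 of them were at least 2-fold lower in ZBP1 and 0 at least 2-fold higher, beside 50.1% and 0.293% of all 682 names compared. The members' share of lower names, 55.1%, was thus near the background. By kind, 13 of 16 internal names (81.3%) and 36 of 73 LTR names (49.3%) were at least 2-fold lower. Per reads outside rRNA, 5 of 16 internal and 4 of 73 LTR names were, together 10.1% of the members, beside 7.94% of all 680 names. On that scale 0 members were at least 2-fold higher, beside 8.09% of all names. The median log2 ratio per reads outside rRNA was -0.57 for internal and 0.01 for LTR names, against -0.05 over all names. The 9 lower names on that scale all met the limit on summed reads by their PS19 ZNA reads alone. Of them, MYSERV-int and MYSERV16_I alone met it by their ZBP1 reads as well. The PS19 ZNA library had more reads outside rRNA, so this limit admits sparse names high in ZNA more readily than those high in ZBP1. The counts and medians take no account of this, so by themselves they do not show that internal and LTR names differ.

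The share of internal reads within the set does not depend on how libraries are scaled. It was 9.07% for PS19 ZBP1 (8.34 to 9.84%), 14.0% for PS19 ZNA (13.6 to 14.5%) and 13.4% for WT ZNA (12.7 to 14.1%). The intervals of the ZNA libraries overlap, and that of ZBP1 lies below both. Expressed as the log2 ratio of internal reads minus that of LTR reads, the difference was -0.71 for ZBP1 against ZNA in PS19 (-0.85 to -0.57) and 0.07 for PS19 against WT in ZNA (-0.03 to 0.17). The ZBP1 library also had the fewest reads outside rRNA, and the part of depth was not tested. Antibody and library cannot be told apart with 1 library per group.

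The same measure was taken over 533 other LTR-type names (IAP, RLTR, ETn, MERVL, MT, ORR1, MLT1, MST, LTR, MER and related prefixes). Their internal share was 10.7% in PS19 ZBP1, 12.2% in PS19 ZNA and 11.2% in WT ZNA, and their ZBP1 against ZNA difference was -0.22 (-0.29 to -0.15). The members' difference minus that of the other names was -0.49 (standard error 0.08 from counting, 95% interval -0.64 to -0.33). Some MER names are DNA transposons. Without the 132 MER names it was likewise -0.49 (-0.64 to -0.33). When the MYSERV and MurERV4 names were left out, a choice made after the data had been seen, the members' own difference was -0.36 (-0.54 to -0.19). That interval overlaps the interval of the other names, so the excess is not shown for the rest of the set.

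**Figure D3:**
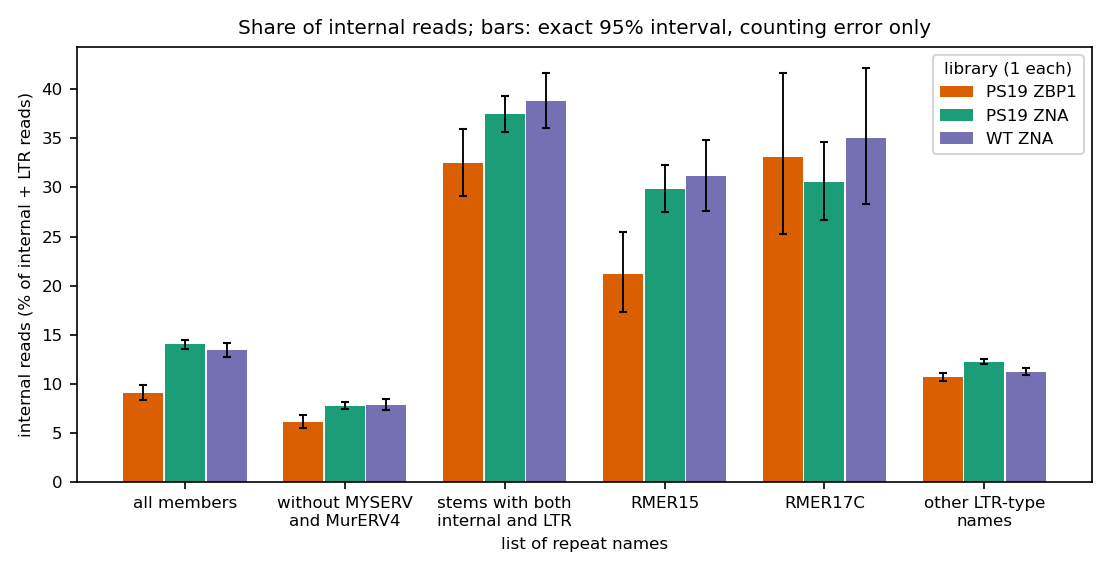
Internal reads as a percentage of internal plus LTR reads (y axis) in each of the 3 libraries (colours) for all members, subsets of them and the other LTR-type names (x axis); error bars are exact 95% intervals for counting error. Over all members the PS19 ZBP1 bar stands at 9.07%, below 14.0% and 13.4% in the ZNA libraries, and it is also the lowest for RMER15, while for RMER17C the intervals overlap.

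The 5 MYSERV and MurERV4 names carried much of this difference. MYSERV-int had 47 reads in PS19 ZBP1, 409 in PS19 ZNA and 150 in WT ZNA, or 631, 1325 and 1032 CPM of the reads outside rRNA. It was 2.10-fold lower in ZBP1 than in ZNA of PS19 on that scale (1.55 to 2.90). MYSERV16_I, at 389, 969 and 784 CPM of the reads outside rRNA, was 2.49-fold lower (1.70 to 3.78). MYSERV6-int, at 645, 966 and 819, was 1.498-fold lower (1.10 to 2.08). For each of the 3 MYSERV names the ZBP1 library was the lowest of the libraries and the PS19 ZNA library the highest.

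MurERV4, a murine retrovirus interior, followed the same order. MurERV4-int had 49 reads in PS19 ZBP1, 402 in PS19 ZNA and 158 in WT ZNA, or 658, 1303 and 1087 CPM of the reads outside rRNA. It was 1.98-fold lower in ZBP1 than in ZNA (1.47 to 2.72). MurERV4_19-int had 7, 139 and 49 reads, or 94.0, 450 and 337 CPM of the reads outside rRNA, and was 4.79-fold lower (2.26 to 12.1). No LTR of MYSERV or MurERV4 carries a name of this set, so their interiors could not be compared with LTRs of their own. Without these 5 names, a subset chosen after the data had been seen, the internal against LTR difference was -0.36 (-0.54 to -0.19). The set's own was -0.71, and that of the other LTR-type names was -0.22 (-0.29 to -0.15). The internal shares without the 5 names were 6.11%, 7.72% and 7.84%.

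Internal names of the RMER families were less uniform. RMER3D-int was 1.48-fold lower in ZBP1 per reads outside rRNA (1.12 to 1.99). RMER15-int, the most-read internal name, had 87, 442 and 204 reads in PS19 ZBP1, PS19 ZNA and WT ZNA, and its ZBP1 to ZNA ratio was 0.816 (0.6405 to 1.03). RMER16-int had 51, 201 and 94 reads and a ratio of 1.05 (0.758 to 1.44), and RMER17C-int had 45, 163 and 68 reads and a ratio of 1.14 (0.803 to 1.60). MERVK26-int had a ratio of 0.835 (0.526 to 1.28). The ERVB internal names with at least 10 CPM gave 0.898 for ERVB4_1-I_MM, 0.784 for ERVB4_1B-I_MM and 1.66 for ERVB4_2-I_MM, all with intervals that include 1.

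Interiors were then set against LTRs that carry the same name stem, of which 10 stems had both and 6 had at least 100 reads. Over the 10 stems the internal share was 32.5% in PS19 ZBP1 (29.1 to 36.0%), 37.5% in PS19 ZNA (35.7 to 39.3%) and 38.8% in WT ZNA (36.1 to 41.6%), and the ZBP1 against ZNA difference was -0.32 (-0.57 to -0.07), less than over all members. RMER15 was the stem with the most reads: its internal share was 21.2% (17.3 to 25.4%), 29.8% (27.5 to 32.2%) and 31.1% (27.6 to 34.8%), a difference of -0.66 (-1.06 to -0.28). The RMER15 LTR name itself had a ZBP1 to ZNA ratio of 1.29 per reads outside rRNA (1.14 to 1.47). RMER17C, in contrast, had internal shares of 33.1%, 30.6% and 35.1% and a difference of 0.17 (-0.45 to 0.77).

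The remaining stems had few reads. RMER16 had a difference of 0.61 (-0.67 to 2.09), with internal shares of 87.9%, 82.7% and 80.3%. ERVB4_1B had a difference of 1.06 (-0.61 to 2.96). RMER17A-int had 1 read in ZBP1 and 16 in ZNA beside 71 and 224 for its LTR, a difference of -2.34 (-7.75 to 0.40). ERVB4_2-LTR_MM had no read in ZBP1 beside 22 for its interior, so the stem gave no difference. Among the 5 stems that gave a value, the interval excludes 0 for RMER15 alone.

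**Figure D4:**
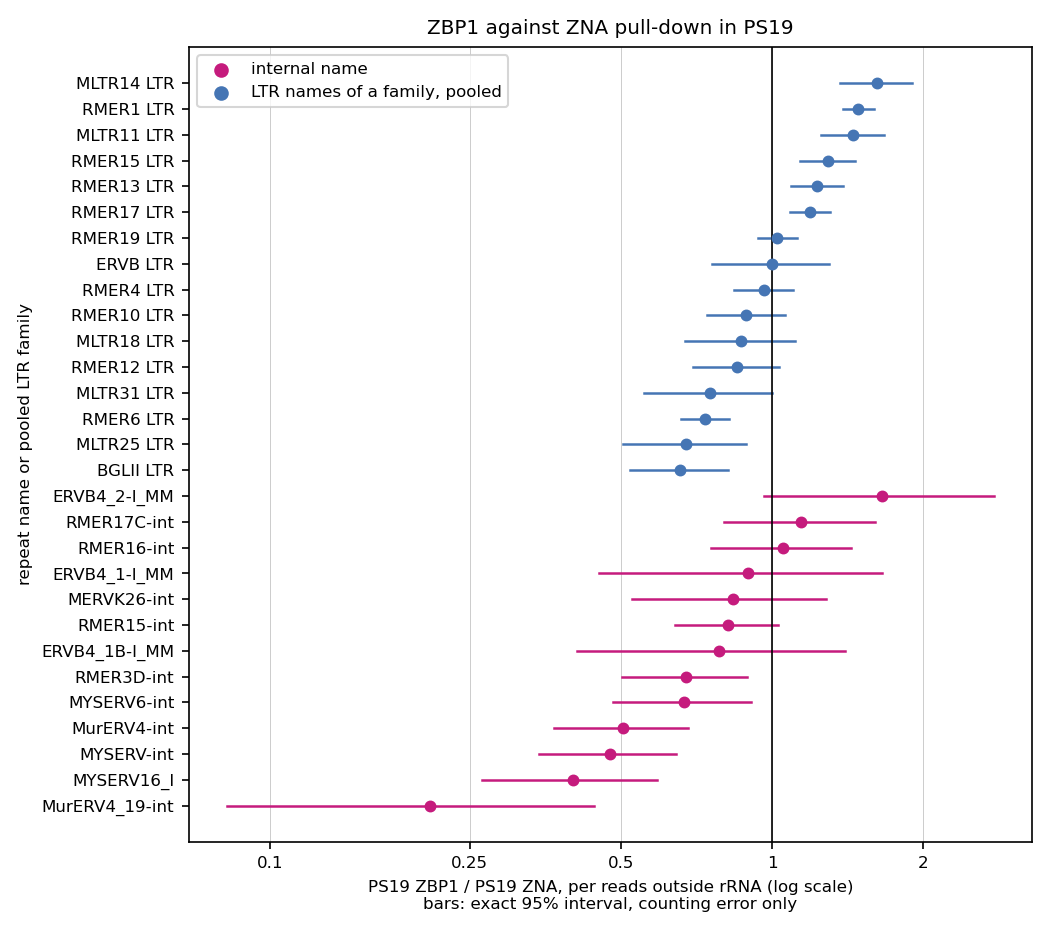
Ratio of PS19 ZBP1 to PS19 ZNA per reads outside rRNA (x axis, log scale) for the 13 internal names that average 10 CPM or more and for pooled LTR names of 16 families (y axis); bars are exact 95% intervals for counting error. LTR families run from 0.6565 (BGLII) to 1.62 (MLTR14), and internal names from 0.209 (MurERV4_19-int) to 1.66 (ERVB4_2-I_MM).

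The families did not move together either. Of the 30 families, internal and LTR names pooled, 6 had a ZBP1 to ZNA ratio with an interval above 1 per reads outside rRNA. Another 6 had one below 1, and 18 had one that includes 1. Of those below 1, MYSERV and MurERV4 hold internal names only, and RMER3 had reads on its internal name only. Here too no such count was made over other names. RMER1 had 1086 reads in ZBP1 and 3027 in ZNA, a ratio of 1.49 (1.39 to 1.59), and it took 19.0% of the member reads in PS19 ZBP1 against 13.3% in PS19 ZNA and 14.4% in WT ZNA. MLTR14, with 204, 523 and 221 reads in PS19 ZBP1, PS19 ZNA and WT ZNA, had a ratio of 1.62 (1.37 to 1.90). MLTR11 had a ratio of 1.45 (1.25 to 1.67), RMER13 of 1.23 (1.09 to 1.39) and the RMER17 LTR names of 1.19 (1.09 to 1.30). The 4 RMER19 names, pooled, gave 1.02 (0.936 to 1.12).

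LTR names were lower in ZBP1 in BGLII, RMER6 and MLTR25. The 7 BGLII names had 93 reads in ZBP1, 587 in ZNA of PS19 and 207 in WT ZNA, a 1.52-fold lower value in ZBP1 per reads outside rRNA (1.22 to 1.92). Among them BGLII_Mus had 3, 61 and 12 reads, a 4.91-fold lower value (1.60 to 24.5), and BGLII itself, at 36, 222 and 95 reads, was 1.49-fold lower (1.04 to 2.18). The 5 RMER6 LTR names were 1.36-fold lower (1.22 to 1.52), led by RMER6A with 186, 1166 and 407 reads (1.51-fold, 1.29 to 1.78). MLTR25 was 1.48-fold lower (1.13 to 1.98). ERVB4_1B-LTR_MM, with 5, 55 and 15 reads, was 2.65-fold lower (1.07 to 8.50). BGLII_Mus and ERVB4_1B-LTR_MM were named for their low ratios and had less than 10 CPM in ZBP1. They met the 10 CPM limit through ZNA alone, and the intervals take no account of this. The intervals of these names are thus no evidence of a difference.

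The 5 highest ZBP1 to ZNA ratios per library total, again ranked on the log2(CPM + 1) scale, among names with at least 10 CPM were those of RMER1C, ERVB4_2-I_MM, MLTR14, ERVB7_1-LTR_MM and MLTR11B. Each ratio of CPM was below 1 per library total, from 0.760 to 0.825, and above 1 per reads outside rRNA. RMER1C had 160 reads in ZBP1, 397 in ZNA and 180 in WT ZNA, a ratio of 1.67 per reads outside rRNA (1.38 to 2.01). MLTR11B had 124, 334 and 158 reads, a ratio of 1.54 (1.24 to 1.90). ERVB4_2-I_MM (22, 55 and 30 reads) and ERVB7_1-LTR_MM (17, 45 and 7 reads) had ratios of 1.66 (0.963 to 2.76) and 1.57 (0.840 to 2.79). The 5 names were chosen by their ratios, and the intervals take no account of this choice.

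The spread of ratios among well-read members was wider in the ZBP1 against ZNA comparison than in the PS19 against WT comparison. Among LTR names with at least 100 reads over the libraries compared, the standard deviation of the log2 ratio per reads outside rRNA was 0.40 over 45 names for ZBP1 against ZNA, where counting error alone gives 0.22. It was 0.26 over 48 names for PS19 against WT, where counting error gives 0.18. For internal names it was 0.73 over 10 names against a counting error of 0.29, and 0.18 over 11 names against 0.19. The internal names thus varied between the ZNA libraries about as much as counting error gives. Both comparisons use the PS19 ZNA library, so their values are not independent of each other.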

How the data were processed

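Each library is 1 deposited table of whole-number read counts per repeat name, made by the authors with no normalization step, as the headers and values of the deposited files show. The submitters' processing notes name Trim Galore 0.6.5, STAR 2.5.3a, featureCounts 2.0.4 and the mm39 build, with no role given. The repeat annotation, the strand setting and the handling of multi-mapping reads are not given in the sources used here, and they decide how reads divide among related names. No line lacked a name.

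Names were compared on log2(CPM + 1) when the 2 libraries averaged 1 CPM or more and together held 20 reads or more. For the scale per reads outside rRNA, these reads were rescaled to the mean library total, so that the pseudocount kept its weight. Ratios carry exact conditional 95% intervals. With 1 library per group no dispersion can be estimated, so no count model was fitted; edgeR 4.0.16 gave only the TMM factors. The comparison per library total was tried on simulated data that held counting error only. That trial does not bear on spread between libraries or on the scale per reads outside rRNA. Internal names end in -int or carry I as a separate part. Named members are the internal names with at least 10 CPM, the 10 most-read LTR names, the 5 highest and 5 lowest ratios per comparison at 10 CPM, and stems with both kinds and at least 100 reads. Members and lists were chosen with earlier results of these data known. Python 3.11.15, scipy 1.17.1 and R 4.3.3 were used.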

Additional observations from a re-analysis of the deposited data

How the results depend on the processing

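Scaling decided the counts past 2-fold. In PS19 against WT, the 75 higher members became 6 per reads outside rRNA and 6 under TMM, and 6 at a 4-fold limit; without a filter 1 was lower. Their median log2 ratio of 1.35 became 0.16 and 0.16 under these scalings, and 1.39 and 1.18 with pseudocounts of 0.1 and 5. In ZBP1 against ZNA, the 49 lower members became 9 and 10 under these scalings, 76 at 1.5-fold and 6 at 4-fold. Their median of -1.09 became -0.086 and -0.24, -0.89 with a pseudocount of 5 and -1.02 at 10 CPM. The cause of the scaling effect lies in the construction, since rRNA sets the library total.

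The internal shares in PS19 ZBP1, PS19 ZNA and WT ZNA were 7.66%, 12.3% and 11.6% without RMER15-int, 9.96%, 15.0% and 14.4% without RMER1B, 11.2%, 16.2% and 15.7% without RMER1 and RMER30, 32.5%, 37.5% and 38.8% over stems with both kinds, and 6.11%, 7.72% and 7.84% without MYSERV and MurERV4. The ZBP1 library was the lowest in each. The ZBP1 against ZNA difference of -0.71 became -0.32 over those stems and -0.36 without MYSERV and MurERV4, and the PS19 against WT difference of 0.07 changed sign under both, to -0.083 over those stems, with an interval that includes 0, and to -0.024 without MYSERV and MurERV4; the names used differ by construction. The members' share of the library was 7.67%, 7.36% and 6.71% of the reads outside rRNA, 0.365%, 0.728% and 0.281% without RMER1B, and 0.324%, 0.673% and 0.257% without RMER1 and RMER30.

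Of the 80 values recomputed, 37 stayed within their limits, 42 moved and 1 changed sign beyond the interval of its main value; another changed sign within it. No paired analysis was possible because each group has 1 library, and for the same reason no library could be left out. The lowest depth is that of PS19 ZBP1, in which 1 read is worth 0.702 CPM.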
